A study of Mus musculus with 4 samples.

Results

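The immunity-related GTPases (IRG proteins) described here are the 7 mouse genes Irgm1, Irgm2, Igtp, Iigp1, Tgtp1, Tgtp2 and Ifi47, out of 20637 named genes on the arrays. They were matched by RefSeq accession and are shown with all of their 10 probes, which occupied 19 spots. They were chosen by the KO minus WT differences of these arrays, on which interferon-induced GTPases were lower in CD300a-deficient mice, so the genotype differences below are given as a description, with no test. Colonic lamina propria dendritic cells, the antigen-presenting cells of the connective tissue under the gut epithelium, had been sorted by flow cytometry from C57BL/6J mice and hybridised to 1-colour Agilent arrays. The 4 groups were CD300a-deficient mice raised germ-free (KO GF), wild-type mice raised germ-free (WT GF), CD300a-deficient mice raised under specific pathogen-free conditions (KO SPF) and wild-type mice under SPF conditions (WT SPF). CD300a is an inhibitory receptor for phosphatidylserine on dying cells. Each group was 1 array, with cells from 5 mice per condition, so no difference has a replicate check. The germ-free mice were labelled male and the SPF mice female, and the sources used here do not give the age of the mice.

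IRG proteins are large GTPases of cell-autonomous immunity that mouse cells make in quantity after exposure to interferon gamma. The effector members Iigp1 (Irga6), Tgtp1 and Tgtp2 (both Irgb6) and Ifi47 (Irgd) can accumulate on the vacuole around an intracellular parasite such as Toxoplasma gondii and disrupt it. The regulatory members Irgm1, Irgm2 and Igtp (Irgm3) sit on the cell's own membranes, where they keep the effectors inactive. Transcription follows from interferon receptors through the GAS element, which answers mainly to interferon gamma, and the ISRE, which is bound by interferon regulatory factors.

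The promoters of 5 members are shown because they carry the letters of these elements, in 4 of them in a shared arrangement. RefSeq promoter windows of GRCm38.p6, which run from 250 bases before the transcription start to 50 after it, were given for 6 of the 7 members. Both strands were searched for the ISRE letters (GAAA, any 2 bases, GAAA) and the GAS letters (TTC, any 3 bases, GAA), and matches may overlap. Below are the 100 bases just before the start, 5′ to 3′ in the direction of transcription, with every match to either motif in capitals.
Irgm1, chr11:48871421-48871520, minus strand: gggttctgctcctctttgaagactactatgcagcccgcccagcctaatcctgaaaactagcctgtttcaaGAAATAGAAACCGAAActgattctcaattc
Irgm2, chr11:58214877-58214976, plus strand: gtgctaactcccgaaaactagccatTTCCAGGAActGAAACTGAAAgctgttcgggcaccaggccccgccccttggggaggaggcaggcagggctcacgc
Igtp, chr11:58199456-58199555, plus strand: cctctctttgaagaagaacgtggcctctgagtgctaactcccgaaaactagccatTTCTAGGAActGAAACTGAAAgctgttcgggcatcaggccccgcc
Tgtp1, chr11:48992247-48992346, minus strand: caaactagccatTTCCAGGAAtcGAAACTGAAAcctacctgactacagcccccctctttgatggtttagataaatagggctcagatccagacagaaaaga
Tgtp2, chr11:49064213-49064312, minus strand: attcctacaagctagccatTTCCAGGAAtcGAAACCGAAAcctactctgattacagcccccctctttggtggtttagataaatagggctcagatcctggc

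The ISRE letters were present in 5 of the 6 members with a window, against 3.44% of all 32851 windows, and the GAS letters in 4 of 6, against 8.3% of all windows. In Irgm2, Igtp, Tgtp1 and Tgtp2 the GAS match was followed, after 2 bases, by the ISRE match, so that they form 1 block of 21 bases. The block begins 75 bases before the start in Irgm2, 45 in Igtp, 88 in Tgtp1 and 81 in Tgtp2. That pattern, the GAS letters, any 2 bases and the ISRE letters in this order, was written down after these members' letters had been seen, and it matched 5 of the 32851 windows (0.0152%). The 5 windows were those of these 4 members and of Gm12185, another IRG family gene, all on chromosome 11. The blocks of Irgm2 and Igtp differed at 1 of 21 bases, as did those of Tgtp1 and Tgtp2, and the largest number of mismatches, between Igtp and Tgtp2 and between Igtp and Gm12185, was 4. Igtp and Irgm2 are neighbouring genes whose windows share an identical run of 61 bases, and Tgtp1 and Tgtp2 share one of 27 bases, so these windows are not independent examples. The Irgm1 window had 2 overlapping ISRE matches, beginning 30 and 24 bases before the start, and no GAS match. The Ifi47 window had neither motif. Among 5 guanylate-binding protein genes with a window, which encode the other large interferon-induced GTPases, 5 held the ISRE letters and 2 the GAS letters, but 0 had the 21-base pattern.

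**Figure D1:**
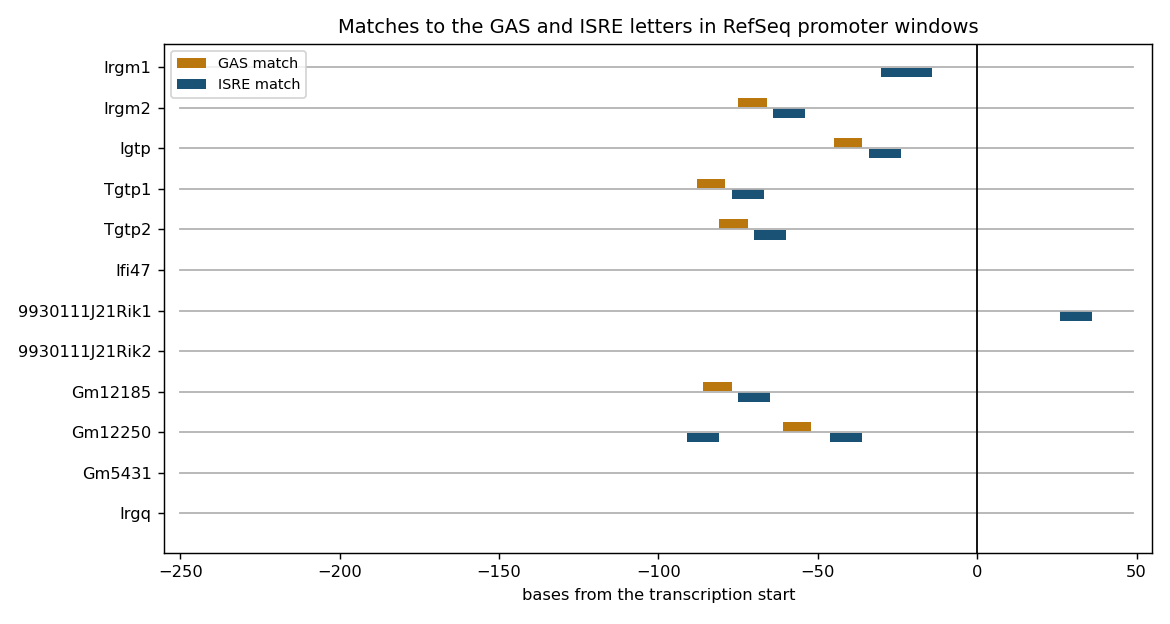
Positions of matches to the GAS letters (orange, upper) and the ISRE letters (blue, lower) in the RefSeq promoter windows of 6 members and 6 other IRG family genes, in bases from the transcription start (0), with each grey line spanning 250 bases before to 50 after it. In Irgm2, Igtp, Tgtp1, Tgtp2 and Gm12185 the matches form the same 21-base arrangement, and Ifi47 has no match.

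Each level is the log2 processed signal relative to its array's 75th percentile. A genotype difference is the KO level minus the WT level, and a housing difference the GF level minus the SPF level. A level of a probe is not compared with that of another probe, since probes differ in how well they hybridise. Between 13797 and 15055 of the named genes were well above background on an array. Both GF arrays were on 1 slide and both SPF arrays on another, so housing, slide, scan and the sex on the labels cannot be told apart. Cd300a, the targeted gene, read 8.05 on the KO GF, 7.60 on the WT GF, 7.91 on the KO SPF and 7.88 on the WT SPF array. The sources used here do not place its probe relative to the deletion, so it does not check the genotype, and the arrays are called KO-labelled. Xist, the RNA that silences an X chromosome in females, read 3.62 on the KO-labelled GF array although its label says male, while on the WT GF array it stayed near background. The Y-linked genes Ddx3y (0.59), Eif2s3y (-0.59), Uty (-2.03) and Kdm5d (-3.48) were also well above background on the KO-labelled GF array, and Eif2s3y (-2.56) on the KO-labelled SPF array, whose label says female. Of 11 matched conventional dendritic cell markers, 10 were well above background on both GF arrays, Xcr1 being the exception, and 11 on both SPF arrays.

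Under SPF housing the IRG genes other than Iigp1 were lower on the KO-labelled array. Of the 7 genes, 6 were at least 2-fold lower and 0 at least 2-fold higher, among 14877 measured genes of which 6.61% passed 2-fold downwards and 5.61% upwards. The gene with the smallest of the 6 differences was Irgm2 (-1.01), just past 2-fold, and it fell short with quantile (-0.99), cyclic loess (-0.99) and array median scaling (-0.95), which left 5 genes. With normexp 3 genes were past 2-fold, where 0.618% of all measured genes were. The median difference of the 7 genes was -1.32, against -0.06 over all measured genes. Because these counts come from the contrast that led to the choice of the genes, they carry no weight beyond the values. In a sorted population, fewer cells with the transcript and less transcript per cell cannot be told apart.

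The 3 regulatory members were all lower. Irgm1, whose product is also linked to autophagy and mitochondrial quality control, read -0.99 on the KO-labelled SPF array against 0.27 on the WT SPF array with its brighter probe, a level 2.39-fold lower. Its dimmer probe read -2.53 against -0.61, which is 3.80-fold lower. Both probes therefore gave a lower level on the KO-labelled array, with a gap of 0.66 between their differences. Irgm2 read 0.34 on the KO-labelled and 1.36 on the WT SPF array, and Igtp -0.35 and 0.97 in the same comparison. The Igtp probe was printed 10 times on each array, which gives the only measure of technical spread for a member. Its 10 spots lay between -0.47 and -0.23 on the KO-labelled SPF array, mean -0.35 ± 0.07 (SD over spots), and between 0.75 and 1.1 on the WT SPF array, mean 0.97 ± 0.10. The spots of both arrays did not overlap, but how often this holds for other probes was not counted. Over 271 probes with 10 or more spots, the pooled SD of the difference between spots was 0.20 for this pair, and it covers the array's own noise and no variation between mice.

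**Figure D2:**
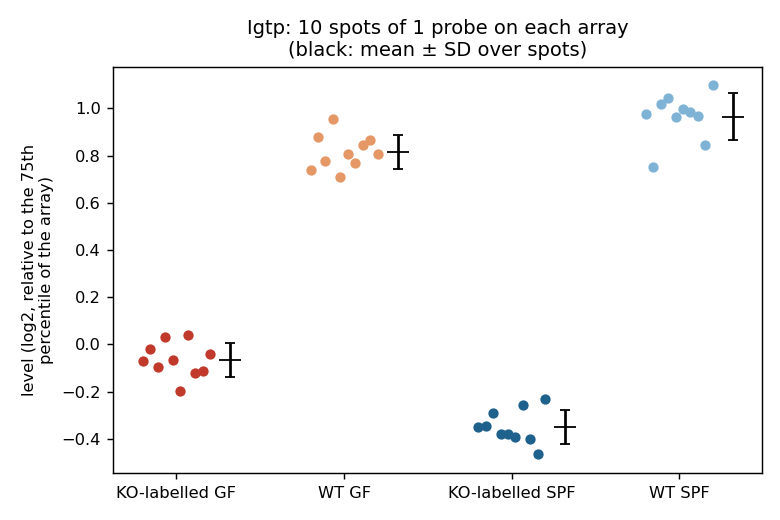
Level of Igtp (log2, relative to the 75th percentile of the array) in each of the 10 spots of its probe on the 4 arrays, with the mean ± SD over spots in black. The spots of each KO-labelled array lie below all spots of the WT array of the same housing, and spots measure technical spread only. How often this holds for other probes was not counted.

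The effector members Ifi47, Tgtp1 and Tgtp2 were lower as well, while the probes of the effector Iigp1 disagreed. Ifi47 read 1.23 on the KO-labelled SPF array against 2.59 on the WT SPF array (2.56-fold lower). Tgtp2 read 0.42 against 1.96 with its brighter probe and -2.93 against -2.30 with its dimmer one, differences of -1.55 and -0.63. Tgtp1, measured by 1 probe, was not well above background on the KO-labelled SPF array and read -1.76 on the WT SPF array. Set against the lowest level called well above background on the KO-labelled SPF array, it was 4.29-fold lower. That fold is not a strict minimum, and the Tgtp1 difference was -0.51 with normexp. Tgtp1 and Tgtp2 are near-identical copies, and their probes may bind both transcripts. The probes of Iigp1 gave opposite results. The brighter probe (A_55_P2410304) read 3.23 on the KO-labelled and 3.11 on the WT SPF array, a difference of 0.13. The dimmer probe (A_55_P1990633) was not well above background on the KO-labelled SPF array and read -1.07 on the WT SPF array. Set against the same lowest level, it was 6.91-fold lower. Both carry the same accession in the files, so the values do not say which of them tracks the Iigp1 transcript. Averaging them gave an Iigp1 difference of -1.65 in place of 0.13. Over all genes with several probes, the SD between the differences of probes of a gene was 0.52 for this pair.

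**Figure D3:**
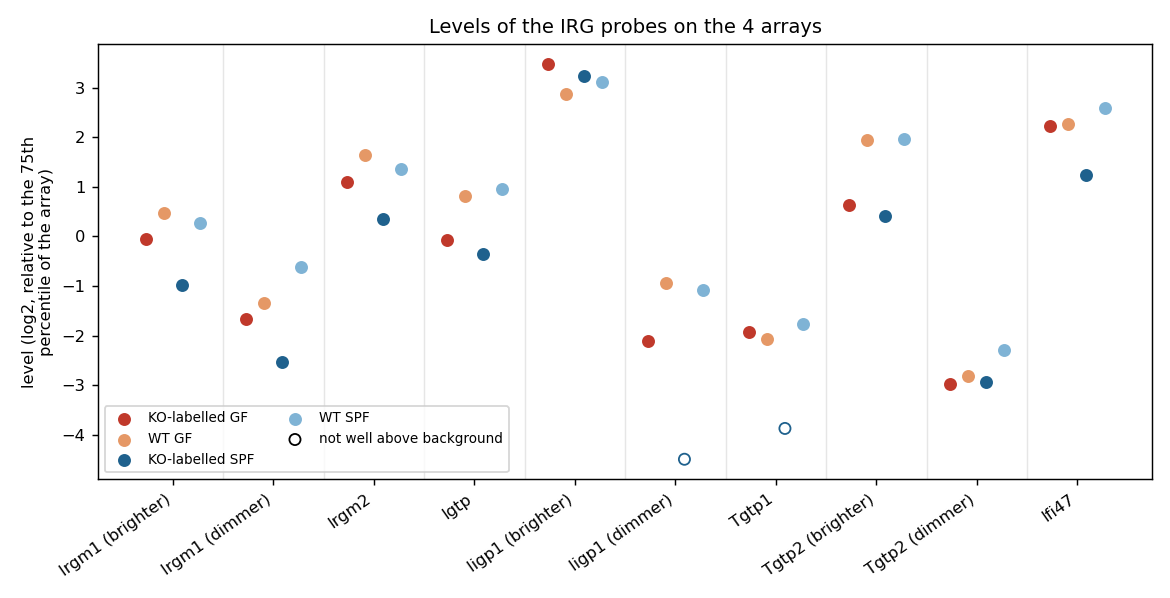
Level of each of the 10 IRG probes (log2, relative to the 75th percentile of the array) on the KO-labelled GF, WT GF, KO-labelled SPF and WT SPF arrays, 1 point per array, with open circles where the probe was not well above background. The KO-labelled SPF array is the lowest of the 4 for 8 of the 10 probes.

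Under GF housing the genotype difference of the IRG genes was smaller. Of the 7 genes, 1 was at least 2-fold lower and 0 higher, among 15697 measured genes of which 7.77% passed 2-fold downwards and 8.8% upwards. The member past 2-fold was Tgtp2, at 0.63 on the KO-labelled GF against 1.94 on the WT GF array (2.48-fold lower by the brighter probe, but -0.15 by the dimmer). Igtp read -0.07 ± 0.07 against 0.82 ± 0.07 (SD over 10 spots), and its spots did not overlap between these arrays either. For this pair too, how often other probes separate in this way was not counted. Irgm1 read -0.04 against 0.47 and Irgm2 1.1 against 1.65. Ifi47 read 2.22 on the KO-labelled and 2.27 on the WT GF array. Tgtp1 read -1.92 and -2.06 there, a difference of 0.14. The Iigp1 probes again went opposite ways, at 0.61 with the brighter and -1.17 with the dimmer. The median difference of the 7 genes was -0.51, against -0.20 over all measured genes. That reference is not matched for brightness. Of 4 groups of genes by mean level, the brightest had a median of -0.43 and held 4 of the 7 members. The next had -0.20 with 2 members, and the group below it 0.14 with 1. The -0.51 of the members was closer to the -0.43 of the brightest group than to -0.20. The all-gene median of this pair was -0.43 with array median scaling and 0.08 with the deposited table, which shift every gene alike. Relative to the all-gene median the 7 genes had -0.31, and -0.22 with quantile scaling, -0.23 with cyclic loess scaling and -0.23 with averaged probes. The signs for Ifi47 and Tgtp1 change with the scaling, between -0.28 and 0.26 for Ifi47 and between -0.08 and 0.43 for Tgtp1, and that of Iigp1 turns to -0.28 when its probes are averaged.

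**Figure D4:**
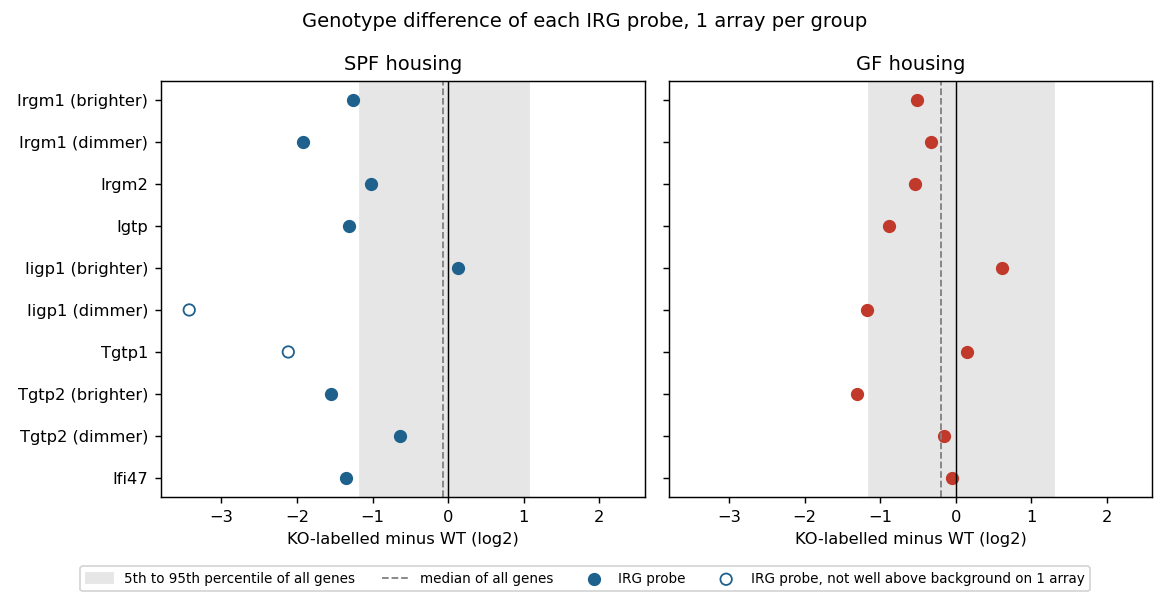
KO-labelled minus WT difference (log2) of each IRG probe under SPF housing (left) and GF housing (right), with the grey band from the 5th to the 95th percentile of all measured genes and the dashed line at their median. Under SPF housing 8 of the 10 probes lie at or below -1, and under GF housing 2 of 10 do.

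The genotype difference was more negative under SPF than under GF housing for all 7 genes, against 44.3% of 16372 genes. Tgtp2 turned to 0.06 with array median scaling. The difference between the housings (SPF minus GF) had a median of -0.48, against 0.12 over the 16372 genes. It was -1.30 for Ifi47, -0.75 for Irgm1, -0.48 for Iigp1, -0.47 for Irgm2, -0.43 for Igtp and -0.24 for Tgtp2. For Tgtp1, whose KO-labelled SPF level was not well above background, the measured value of -2.26 is not an exact difference, and it was -0.53 with normexp. With array median scaling the median was -0.19. With 1 array per group and all 4 arrays used, this value has no residual degree of freedom and was not tested. It also rests on the genotype differences that led to the choice of the genes.

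Housing was not used to choose the genes. On the WT arrays each IRG gene differed by less than 2-fold between housings. Irgm1 read 0.47 on the GF and 0.27 on the SPF array, Irgm2 1.65 and 1.36, and Igtp 0.82 and 0.97, with overlapping spots. Tgtp2 read 1.94 and 1.96, Ifi47 2.27 and 2.59, Tgtp1 -2.06 and -1.76, and the brighter Iigp1 probe 2.87 and 3.11 on the same pair of arrays. The differences lay between -0.32 and 0.29, with 0 of 7 genes at least 2-fold higher and 0 lower, among 15656 measured genes of which 17.5% passed 2-fold upwards and 9.44% downwards. The dimmer Irgm1 probe differed most of all 10 probes, by -0.73.

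On the KO-labelled arrays the median of the IRG genes was higher under GF housing, although Igtp, Iigp1 and Tgtp2 change sign with array median scaling. Ifi47 read 2.22 on the GF against 1.23 on the SPF array (1.98-fold), Irgm1 -0.04 against -0.99 (1.93-fold) and Irgm2 1.1 against 0.34 (1.70-fold). Tgtp1 was near background on the KO-labelled SPF array. Against the lowest level called well above background there, it was 3.84-fold higher under GF housing, but its difference was 0.46 with normexp. The dimmer Iigp1 probe was 3.37-fold higher in the same way. Igtp, Iigp1 and Tgtp2 differed by 0.28, 0.25 and 0.22, and by -0.003, -0.04 and -0.07 with array median scaling. The median was 0.76, against 0.05 over all measured genes, and 1 of 7 genes was at least 2-fold higher and 0 lower, among 15572 measured genes of which 21.6% passed 2-fold upwards and 15.4% downwards. The count changed with the setting, to 4 of 7 with the deposited table (29.6% of all genes), 2 of 7 with quantile scaling (20.2%), cyclic loess scaling (20.3%) or averaged probes (21.7%), and 0 of 7 with normexp (7.78%). This comparison shares its arrays with the genotype comparisons, the KO-labelled SPF array among them. The summed signal of 10 epithelial markers also differed between housings, at 247.6 on the KO-labelled GF and 6.26 on the KO-labelled SPF array, and its part in the result was not tested.

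Other IRG family genes gave a mixed picture. Of 10 in the list, 8 were measured under SPF housing, of which 1 was at least 2-fold lower and 2 higher on the KO-labelled array (median -0.54). The shares over all measured genes were 6.61% and 5.61%. The lowest of the list was Gm4951, at -2.02 on the KO-labelled and -0.13 on the WT SPF array. Gm12185, which holds the 21-base promoter pattern, was near background on the KO-labelled SPF array and read -3.02 on the WT SPF array. Gm12250 (Irgb10), a vacuole-targeting effector, read 0.02 against 0.68. F830016B08Rik (1.15) and Irgq (1.07) were the highest. Under GF housing 0 of 8 were past 2-fold in either direction (median 0.29), where 7.77% of all measured genes were lower and 8.8% higher. Gm12250 read 0.86 on both GF arrays. Irgc1 and Gm4841 were not well above background on any array.

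The interferon gamma and type I interferon pathway lists had medians nearer 0 than the IRG genes under SPF housing. Under GF housing their medians were -0.70 and -0.72, lower than the -0.51 of the IRG genes. All measured genes of that pair had -0.20, and the brightest of the 4 groups by mean level -0.43. These contrasts were not tested. The IRG genes were chosen by the genotype differences, so their lower median under SPF housing carries no weight beyond the values. Among all measured genes 6.61% were at least 2-fold lower on the KO-labelled SPF array and 5.61% higher. Of 12 interferon gamma pathway genes, 1 was at least 2-fold lower there and 0 higher (median -0.16). The lower one was Cxcl9, a T cell-attracting chemokine induced by interferon gamma, at 2.72 against 3.92. Nlrc5 was at -0.69, while the receptor gene Ifngr1 (0.65) and the kinase gene Jak2 (0.57) were the highest. Irf1, a transcription factor induced by interferon gamma, read 4.30 against 4.47. Ifng itself read -3.07 on the KO-labelled and -2.92 on the WT SPF array, where the lowest level called well above background was -3.86 and -4.15 on these arrays. Under GF housing 2 of the 12 were at least 2-fold lower, where 7.77% of all measured genes were. They were Socs1 at -1.03 and Ifng by its measured value (-1.06). Ifng was near background on the KO-labelled array, and against the lowest level called well above background there it was only 1.16-fold lower. Cxcl9 read 2.0 on both GF arrays, and its GF minus SPF difference was -1.92 on the WT arrays.

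Of 11 type I interferon pathway genes, 1 was at least 2-fold lower (Stat2, -1.12) and 1 higher (Ifnar1, 1.01) on the KO-labelled SPF array, with a median of -0.31. Under GF housing 3 of 10 were lower and 0 higher, among them Ifnar2 (-1.31) and Ifit3 (-1.24). Of 10 guanylate-binding protein genes, 2 were at least 2-fold lower under SPF housing (Gbp6 and Gbp2) and 4 under GF housing, with medians of -0.60 and -0.88. Among all measured genes 6.61% were at least 2-fold lower and 5.61% higher under SPF housing (median -0.06). The shares under GF housing were 7.77% and 8.8% (median -0.20). On the WT arrays Isg15, a ubiquitin-like interferon-induced protein, read 1.86 under GF against 3.87 under SPF housing. The guanylate-binding protein list had a median of -0.56 on that pair with 3 of 10 at least 2-fold lower, whereas the IRG genes had a median of -0.15. There 9.44% of all measured genes were at least 2-fold lower and 17.5% higher. On the KO-labelled arrays 5 of 12 interferon gamma pathway genes, 6 of 11 type I interferon pathway genes and 4 of 10 guanylate-binding protein genes were at least 2-fold lower under GF housing and 0 of each list higher, with medians of -0.67, -1.14 and -0.51, where the IRG genes had a median of 0.76. Over all measured genes of this pair 15.4% were at least 2-fold lower and 21.6% higher, with a median of 0.05. The difference between these lists was not tested.

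Autophagy conjugation proteins, such as the Atg5 and Atg16l1 products on which IRG loading onto vacuoles depends, were nearly level under SPF housing, with 0 of 10 genes past 2-fold and a median of 0.01. Under GF housing they had a median of -0.53, again with 0 of 10 past 2-fold, Atg3 (-0.96) and Gabarapl1 (-0.84) being the lowest. All measured genes of the GF pair had a median of -0.20, and the brightest of the 4 groups by mean level -0.43. Past 2-fold were 6.61% of all measured genes downwards and 5.61% upwards under SPF housing, and 7.77% and 8.8% under GF housing. Of the cytokines that induce or accompany interferon gamma, Il15, which sustains the natural killer and T cells that make it, was at -3.49 and not well above background on the KO-labelled SPF array, against -2.41 on the WT SPF array. Il27 differed by -0.28 and Il18 by 0.03 on that pair, and the 5 measured genes of that list had a median of 0.03.

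**Figure D5:**
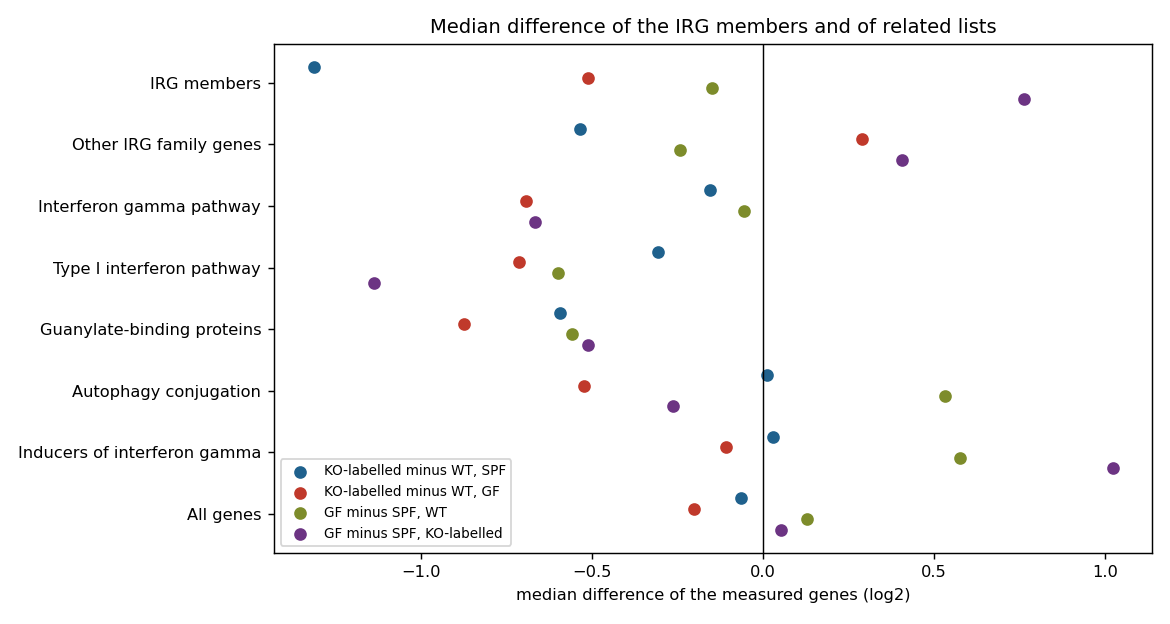
Median difference (log2) of the measured genes in the 7 IRG members, in 6 related lists and over all measured genes, for the 4 comparisons, each of 1 array against 1 array. The IRG members have the lowest median of these sets in the SPF genotype comparison (-1.32) and a positive one (0.76) between housings on the KO-labelled arrays. They were chosen by the genotype differences of these arrays, so their rank in that comparison carries no weight. The housing value shares the KO-labelled SPF array with it.

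Markers of other cells also differed between the arrays. The summed signal of 8 B and plasma cell markers, in units of the array's 75th percentile, was 99.85 on the KO-labelled and 22.3 on the WT SPF array. That of 8 fibroblast and smooth muscle markers was 15.6 and 25.1, of 8 endothelial markers 8.50 and 11, of 10 macrophage and monocyte markers 509.7 and 568.0, and of 11 T and natural killer cell markers 17.6 and 16.0 on the same pair. The sum of 7 neutrophil and eosinophil markers was 341.5 and 319.8 there, carried mostly by Csf3r (a difference of 0.11). Among all measured genes 6.61% were at least 2-fold lower on the KO-labelled SPF array and 5.61% higher. By gene, 4 of the 7 neutrophil and eosinophil markers were at least 2-fold lower there, as the IRG genes were, and 1 higher, with a median of -1.20. The lower ones were S100a9 (-2.01), S100a8 (-1.69, near background on the KO-labelled array), Siglecf (-1.26) and Cxcr2 (-1.20). The sum of 11 conventional dendritic cell markers was 816.0 and 790.4, carried mostly by H2-Ab1 and Cd74. On the KO-labelled SPF array 3 of these 11 were higher by 2-fold or more, namely Ccr7 (2.10), Zbtb46 (1.45) and Xcr1 (1.27), and 0 lower. Cd8a and Ncr1 were not well above background on any array. On the GF arrays the sum of 10 macrophage and monocyte markers was 256.6 on the KO-labelled and 485.1 on the WT array, that of 8 endothelial markers 9.66 and 16.6, and that of 11 conventional dendritic cell markers 363.0 and 593.0. Epithelial markers separated the housings, with a summed signal of 247.6 on the KO-labelled GF and 177.0 on the WT GF array, against 6.26 on the KO-labelled SPF and 3.66 on the WT SPF array. All 10 of them were well above background on the GF arrays, and Cdh1 and Cdx2 on neither SPF array. Epithelial, endothelial and myeloid cells can also make IRG proteins, and the part of these other cells in the IRG differences was not tested.

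The genes whose 4 levels ran most like the mean of the IRG genes were sought among 12878 other genes well above background on all 4 arrays. Likeness was the Euclidean distance between levels centred on each gene's own mean, over 4 arrays. The nearest were Rpgr (distance 0.08), Olfr1232 (0.11), Lrrc14 (0.12), Fadd (0.15), Zfp105 (0.17), Trub1 (0.18), Caprin2 (0.20), Atp6v1g2 (0.21), Txnl4b (0.21) and Iqcc (0.21), against a median distance of 1.16 over these genes. None of the 10 is in the interferon lists, but these hold few of the 12878 genes, so the absence says little. Among the members themselves Ifi47 (0.24), Irgm1 (0.25) and Irgm2 (0.26) were nearest to their mean, and Iigp1 (1.22, brighter probe) the farthest.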

How the data were processed

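Per the labels' protocols, RNA of sorted cells was amplified as cDNA and labelled with Cy3. Per the file headers, the arrays were read with Agilent Feature Extraction 10.10.1.1, and the deposited files hold a processed signal intensity per spot, after the software's background subtraction and before any scaling across arrays. A deposited series table gives the same intensity values times 1 factor an array, linear and uncentred. The factor was 7.96 (column median 331.4) in KO GF, 7.08 (235.7) in WT GF, 8.24 (216.3) in KO SPF and 8.30 (237.2) in WT SPF, and the rule behind the factors stays unknown. Control spots (3671) and outlier-flagged spots were left out, log2 values of the spots of a probe were averaged, and each array's 75th percentile over probes was subtracted. Accessions, versions removed, were matched to RefSeq (GRCm38.p6), which named 27223 of 55681 probes. A gene was represented by its brightest probe, averaged across arrays. A probe was well above background where at least as many of its spots were flagged so as not, and "measured" means so on at least 1 array of the pair. Where it held on 1 array only, a fold is given for a named member. It sets the brighter level against the dim probe's level or the lowest level well above background on the dim array, whichever is higher. That lowest level is taken over all probes and is no limit of detection for a given probe, so the fold is not a strict minimum. Counts and medians use the measured values.

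With 1 array per group no test was run and no p-value is given. The number of arrays limits the precision. The settings named in the last section were tried with limma 3.58.1 in R 4.3.3, and other steps were run in Python 3.11.15. Normexp added an offset of 50 and used the median spot signal, since the planned mean signal is not a column of the files. A planned comparison of the proteins was not run, as protein sequences were not used here. The calculation of the differences was run on simulated levels with known shifts, which checks its arithmetic only and not the measured values. Members and the 14 lists were chosen with earlier results of these data known. Named from each list are its extreme genes and others of known role, which were chosen after their values were seen, and the most similar genes are the 10 nearest. The symbols that matched no probe were Mx1, Gbp11, Il12b, Itgae, Cd68, Ly6c2, Trac and Ly6g. Values of some single genes of the lists are not reported here.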

Additional observations from a re-analysis of the deposited data

Results flagged for a closer look

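With 1 array per group, none of the differences below could be tested. Tgtp1 was lower on the KO-labelled array under SPF housing (-2.11) and slightly higher under GF housing (0.14), opposite directions with a measured gap of -2.26. Its KO-labelled SPF level was not well above background, so the gap is not exact, and normexp gave -0.51 under SPF housing and a gap of -0.53. The GF minus SPF difference went 1 way on the KO-labelled arrays and the other way on the WT arrays for several probes. For the dimmer Irgm1 probe it was 0.86 in KO-labelled and -0.73 in WT cells, a gap (WT minus KO-labelled) of -1.59, but the brighter Irgm1 probe went the same way in both (0.95 and 0.20). For Ifi47 it was 0.99 and -0.32 in the same order, a gap of -1.30, and for Tgtp1 1.95 and -0.31, a measured gap of -2.26 with the same limit. The brighter Iigp1 probe (0.25 and -0.24, gap -0.48), Igtp (0.28 and -0.15, gap -0.43) and the brighter Tgtp2 probe (0.22 and -0.02, gap -0.24) showed smaller gaps of the same kind. The signs of these last 3 on the KO-labelled arrays turn with array median scaling.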

How the results depend on the processing

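No paired analysis was possible because each group is 1 array. For the same reason no replicate could be left out. The settings tried were normexp background correction, quantile, cyclic loess and array median scaling, the deposited table, the mean of a gene's probes, only genes above background on all 4 arrays, and Tgtp1 with Tgtp2 counted once. All probes of the members as the unit was added after the data had been seen. No gene difference that was 2-fold or more as reported changed sign in these settings. Iigp1, under 2-fold as reported, was -1.65 for KO minus WT under SPF housing and 1.32 for GF minus SPF in KO-labelled cells with averaged probes. A median was taken to have moved where it did so by more than the pooled SD between spots. For KO minus WT under SPF housing, the median moved only with normexp (-0.92, with 3 of 7 genes at least 2-fold lower). With normexp 0.618% of all genes were at least 2-fold lower. Under GF housing the median was -0.74 with array median scaling and -0.23 with the deposited table. The count of genes at least 2-fold lower there was 2 with array median scaling, and 0 with averaged probes or with Tgtp1 and Tgtp2 counted once. For GF minus SPF in KO-labelled cells the median was 0.46 with normexp, 0.48 with array median scaling, 1.1 with the deposited table and 0.52 with genes above background on all 4 arrays. The count of genes at least 2-fold higher there was 0 with normexp and with genes above background on all 4 arrays, 2 with quantile, cyclic loess and averaged probes, and 4 with the deposited table. The median of the SPF minus GF genotype difference was -0.78 with cyclic loess, -0.19 with array median scaling, -0.85 with the deposited table and -1.17 with averaged probes. Array median scaling and the deposited table shift every gene of an array alike. Relative to all measured genes, the median stayed with both at -0.31 for KO minus WT under GF housing. It likewise stayed at 0.71 for GF minus SPF in KO-labelled cells. The cause of the shifts with the other settings was not tested. The split of all genes into at least 2-fold higher and lower turned in some settings, under SPF housing from 835 higher and 983 lower to 179 and 92 with normexp, and under GF housing from 1382 and 1220 to 903 and 2506 with array median scaling or 2291 and 571 with the deposited table. Between housings in KO-labelled cells it was 3364 and 2400, but 2588 and 3503 with array median scaling and 4613 and 1501 with the deposited table. The Tgtp1 probe and the dimmer Iigp1 probe were not well above background on the KO-labelled SPF array, so their differences against it are not exact.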
